A study of Mus musculus with 6 samples.

Results

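The smooth muscle contractile genes are a set of 10 genes for the proteins with which smooth muscle cells shorten: Acta2, Lmod1, Tpm1, Tagln, Cnn1, Smtn, Myh11, Myl9, Mylk and Casq2. They were taken by name and matched by Ensembl identifier, and all 10 were found among the 37991 gene rows of the count files. RNA was sequenced from Nestin-GFP-positive cells sorted from mouse pups aged 3 days, out of dermis with the subcutaneous white fat attached to it. The mutant group held 3 libraries, from pups with the Nestin-GFP reporter, the Nestin-Cre recombinase and 1 Pdgfra allele with the activating change D842V, named in the labels as Nes-GFP;Nes-Cre;PDGFRα+/[S]D842V. The control group held 3 libraries, with titles that read Nes-GFP+ cells and name neither the recombinase nor the mutant allele. Both groups therefore shared the reporter and the sort. Recombinase and mutant allele were named together, for the mutants only, and cannot be told apart. Cre acts only in cells, or their descendants, in which the Nestin sequence that drives it was active. What "[S]" stands for was not stated, and neither were strain, litter or sex.

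In a contractile smooth muscle cell, thin filaments of actin and tropomyosin slide past thick filaments of smooth muscle myosin. Calcium entering the cytoplasm binds calmodulin, calmodulin switches on myosin light chain kinase, and the phosphorylated light chain lets the motor work. Most genes of this apparatus are driven by serum response factor, a transcription factor that binds CArG boxes in DNA, together with its muscle partner myocardin. Skin holds such cells around arteries and veins and in the muscles that raise hairs, and pericytes and fibroblasts can carry part of the same apparatus.

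The promoters of 4 members are shown because they hold the largest and the most evenly repeated falls (Casq2, Smtn, Tpm1) and the member highest per length (Acta2), and that of Myl9 because it alone held a perfect CArG box. Each runs 5′ to 3′ over 300 bases, from 250 before the annotated gene start to 50 after it. They are RefSeq sequence of build GRCm38.p6, a later build than the mm9 of the counts. Capitals mark CArG boxes with up to 1 mismatch.
Acta2: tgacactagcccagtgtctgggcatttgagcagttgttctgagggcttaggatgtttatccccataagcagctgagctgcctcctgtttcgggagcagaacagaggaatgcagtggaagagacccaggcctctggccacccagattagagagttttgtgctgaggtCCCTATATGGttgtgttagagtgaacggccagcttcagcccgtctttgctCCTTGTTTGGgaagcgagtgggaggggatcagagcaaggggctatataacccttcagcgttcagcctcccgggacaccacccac
Myl9: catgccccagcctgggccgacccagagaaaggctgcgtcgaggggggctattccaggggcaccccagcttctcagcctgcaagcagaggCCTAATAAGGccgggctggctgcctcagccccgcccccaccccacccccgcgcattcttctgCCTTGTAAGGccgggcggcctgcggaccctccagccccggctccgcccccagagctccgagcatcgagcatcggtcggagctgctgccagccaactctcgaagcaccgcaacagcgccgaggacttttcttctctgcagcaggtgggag
Tpm1: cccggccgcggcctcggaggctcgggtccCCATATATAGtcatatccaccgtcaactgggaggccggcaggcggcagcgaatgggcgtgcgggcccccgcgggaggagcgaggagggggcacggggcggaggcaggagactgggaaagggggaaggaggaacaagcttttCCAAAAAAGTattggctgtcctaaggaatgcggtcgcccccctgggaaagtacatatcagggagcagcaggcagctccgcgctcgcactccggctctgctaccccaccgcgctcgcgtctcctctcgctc
Casq2: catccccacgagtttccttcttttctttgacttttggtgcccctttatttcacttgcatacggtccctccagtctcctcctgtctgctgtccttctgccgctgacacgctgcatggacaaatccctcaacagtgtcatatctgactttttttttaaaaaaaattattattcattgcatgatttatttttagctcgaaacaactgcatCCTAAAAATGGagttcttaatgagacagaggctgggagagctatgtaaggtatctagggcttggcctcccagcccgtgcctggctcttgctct
Smtn: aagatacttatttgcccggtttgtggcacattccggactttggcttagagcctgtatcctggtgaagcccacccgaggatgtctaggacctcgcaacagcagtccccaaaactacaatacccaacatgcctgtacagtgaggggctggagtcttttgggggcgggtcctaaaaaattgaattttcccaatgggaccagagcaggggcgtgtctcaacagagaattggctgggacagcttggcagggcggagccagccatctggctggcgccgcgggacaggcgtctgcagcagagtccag
They lie at chr19:34255324-34255623, minus strand (Acta2), chr2:156775214-156775513, plus strand (Myl9), chr9:67049164-67049463, minus strand (Tpm1), chr3:102086165-102086464, plus strand (Casq2) and chr11:3539243-3539542, minus strand (Smtn). Acta2 held boxes with 1 mismatch that began at -84 and -34 from the start, and Tpm1 at -221 and -80. Myl9 had its perfect box at -161 and another with 1 mismatch at -99. The matches of Casq2, at -43 and -42, overlap. Of the 8 members with a promoter in the table, 1 held a perfect box and 5 held one with up to 1 mismatch. Among 32851 promoters of the same length, 1.63% and 21.1% did. Lmod1 also had matches, and Smtn, Cnn1 and Mylk had none in this window. Tagln and Myh11 were not in the table. The CArG box reads the same on both strands, so 1 search covered both. A match of letters is a description and not a binding site.

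All 10 contractile genes had lower mean levels in mutant than in control cells, and 4 of them were called lower: Smtn, Tpm1, Mylk and Casq2. A gene was called when its edgeR quasi-likelihood p, adjusted over all 15035 genes tested (Benjamini-Hochberg), was under 0.05. Of all tested genes 9.13% were called lower and 8.63% higher, against 4 and 0 of the 10. The median log2 fold change (mutant over control) of the 10 was -0.54, and it was 0.01 over all tested genes, of which 49.2% had a value below 0. In 7 of the 10 the groups did not overlap, each with the mutants below the controls. That was so in 18.6% of all tested genes. In these bulk samples, fewer contractile cells in the sort and less RNA per cell cannot be told apart.

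**Figure D1:**
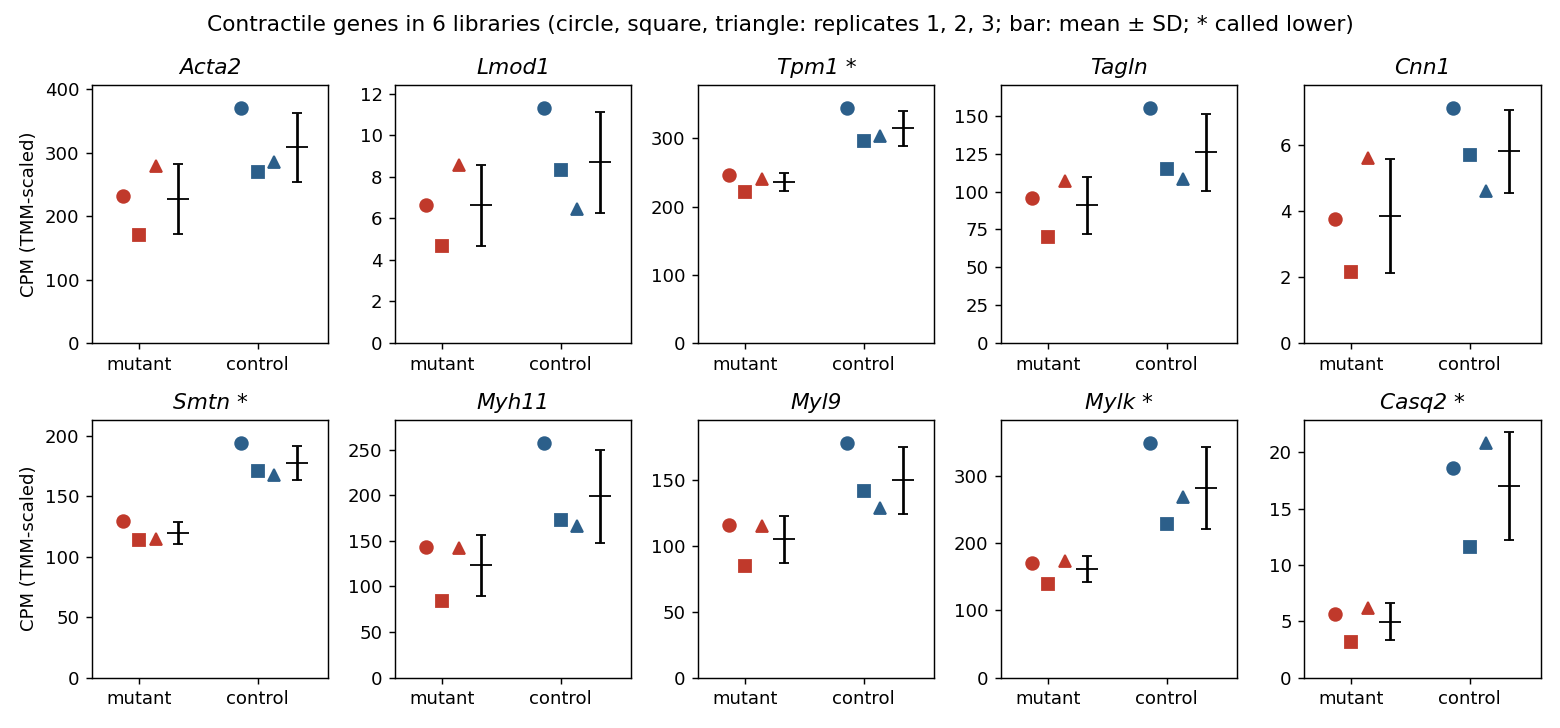
Level of each contractile gene in CPM (vertical axis, from 0) in the 3 mutant and the 3 control libraries, with the mean and SD beside the points. In all 10 panels mutant replicate 2 (square) is the lowest point, and in 9 control replicate 1 (circle) is the highest.

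Levels are given in CPM (a gene's counts relative to all gene counts of its library), scaled between libraries by the TMM method. The pooled level of the 10 genes was 1148, 893 and 1192 CPM in mutant replicates 1 to 3, and 1884, 1422 and 1459.7 CPM in control replicates 1 to 3. The groups did not overlap in this sum. Acta2 made up 19.1% to 23.4% of the sum in mutants and 19.0% to 19.6% in controls.

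Of the 3 members that build the thin filament, Tpm1 was called and Acta2 and Lmod1 were not. Tpm1 (ENSMUSG00000032366), the tropomyosin that lies along the actin filament, had 246, 221 and 240.2 CPM in mutants, against 344, 296 and 304 CPM in controls. The mutant libraries lay close together and all under the lowest control. Tpm1 fell by 0.42 on the log2 scale (95% interval -0.59 to -0.24, edgeR adjusted p = 0.00608). Tpm1 is also used in striated muscle and in cells without muscle character through other splice forms, which gene counts do not separate.

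Acta2 (ENSMUSG00000035783), the actin of vascular smooth muscle, had 232, 170.3 and 279 CPM in mutants, against 370, 269 and 286 CPM in controls. Mutant replicate 3 lay above control replicate 2, so the groups overlapped. Acta2 was not called, at a log2 fold change of -0.44 (95% interval -0.95 to 0.07, edgeR adjusted p = 0.205). Acta2 and Tpm1 thus had nearly equal fold changes, and the standard error was 0.21 for Acta2 and 0.08 for Tpm1.

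Lmod1 (ENSMUSG00000048096), the leiomodin that starts new actin filaments in smooth muscle, was a low gene. It had 6.64, 4.68 and 8.55 CPM in mutants (99, 72 and 162 counts), against 11.3, 8.31 and 6.47 CPM in controls (176, 99 and 101 counts). The groups overlapped, with control replicate 3 under the mutant mean. Lmod1 was not called, at a log2 fold change of -0.38 (95% interval -0.95 to 0.18, edgeR adjusted p = 0.326).

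The actins are close relatives, so their counts were set beside each other. Actg2, the actin of gut-type smooth muscle, had 16.7, 9.56 and 15.1 CPM in mutants, against 46.4, 27.6 and 26.8 CPM in controls, and it fell by 1.29 on the log2 scale (edgeR adjusted p = 0.0432). Leaving out any single library except control replicate 1 ended that call, as did testing with no filter on low counts (adjusted p up to 0.142). The striated muscle actins were higher in mutants. Actc1 had 77.7 ± 18.3 CPM in mutants and 22.8 ± 5.48 CPM in controls (SD, n = 3 each, edgeR adjusted p = 0.00797). Acta1 had 21.8 ± 4.89 CPM in mutants and 6.63 ± 3 CPM in controls (edgeR adjusted p = 0.0278), a call that ended when control replicate 3 or any of the mutant libraries was left out, or with no filter. Of the 50-base windows of the longest Acta2 transcript, 0.352% recurred in a transcript of another gene, Actg1 and actin pseudogenes among them, and none of the other actins of muscle was among these genes.

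Of the proteins that sit on actin and tune it, smoothelin was called and calponin and SM22-alpha were not. Smtn (ENSMUSG00000020439), the smoothelin of contractile smooth muscle, had 129.9, 114 and 115 CPM in mutants, against 194, 171 and 168 CPM in controls. Every mutant library lay well under every control, and the spread was narrow in both groups. Smtn fell by 0.57 on the log2 scale (95% interval -0.75 to -0.39), and its edgeR adjusted p of 0.0012 was the smallest of the 10. Smtn shares 714 exon bases with Gm11946 on the opposite strand. Gm11946 was lower as well (log2 fold change -0.51, edgeR adjusted p = 0.00666), at 24 ± 2.98 CPM in mutants and 34.2 ± 1.58 CPM in controls (SD, n = 3 each). Whether the counting used strand was not stated, so reads of this overlap cannot be told apart. The same holds for 548 and 224 exon bases of Mylk and for 1241 of Tagln, which lie opposite antisense genes, and for 108 bases of Tagln opposite Pcsk7 (log2 fold change -0.02, edgeR adjusted p = 0.912).

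Tagln (ENSMUSG00000032085), which encodes SM22-alpha, an early marker of the smooth muscle lineage, had 95.8, 70.3 and 107 CPM in mutants, against 155, 115 and 108 CPM in controls. The groups only just failed to overlap, at mutant replicate 3 and control replicate 3. At a log2 fold change of -0.47, Tagln was not called (95% interval -0.96 to 0.02, edgeR adjusted p = 0.164), whereas DESeq2 called it (adjusted p = 0.0129). Cnn1 (ENSMUSG00000001349), the calponin of mature smooth muscle, was the lowest gene of the set. It had 3.76, 2.15 and 5.6 CPM in mutants (56, 33 and 106 counts), against 7.11, 5.71 and 4.61 CPM in controls (111, 68 and 72 counts). The groups overlapped, and the log2 fold change of -0.58 had a 95% interval from -1.29 to 0.12 (edgeR adjusted p = 0.229). With no filter on low counts Cnn1 was called (edgeR adjusted p = 0.042).

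Of the motor and its switch, only the kinase was called. Mylk (ENSMUSG00000022836), the myosin light chain kinase, had 171, 139 and 174 CPM in mutants, against 349, 229 and 269 CPM in controls. All mutant libraries lay under the lowest control by a wide margin. Mylk fell by 0.81 on the log2 scale (95% interval -1.18 to -0.44, edgeR adjusted p = 0.014), and without control replicate 3 the call was lost (adjusted p = 0.0521). Without both control replicate 1 and mutant replicate 2 the value was -0.54 and still called.

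Myh11 (ENSMUSG00000018830), the smooth muscle myosin heavy chain and the most specific marker of the lineage, had 143, 84.1 and 142 CPM in mutants, against 257, 173 and 166 CPM in controls. No mutant library reached a control, but both groups were wide, at SDs of 33.5 CPM in mutants and 50.4 CPM in controls. The log2 fold change was -0.69 (95% interval -1.45 to 0.06, edgeR adjusted p = 0.179). Myh11 was called with limma-voom (adjusted p = 0.044), with edgeR without robust fitting (0.0448) and without both control replicate 1 and mutant replicate 2 (0.0365), where its log2 fold change was -0.27.

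Myl9 (ENSMUSG00000067818), the regulatory light chain that Mylk phosphorylates, had 116, 84.6 and 115 CPM in mutants, against 178, 142 and 129 CPM in controls. The groups did not overlap. The log2 fold change was -0.51 (95% interval -0.87 to -0.15), and the edgeR adjusted p of 0.0618 missed the threshold. With DESeq2 it was 0.002 and with limma-voom 0.0341. The edgeR adjusted p was 0.0403 with library totals only and 2.58e-05 with no filter. The call of Myl9 thus depended on the test, the scaling and the filter.

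The largest fall was in the calcium store. Casq2 (ENSMUSG00000027861), a calsequestrin that holds calcium inside the sarcoplasmic reticulum, had 5.64, 3.12 and 6.18 CPM in mutants (84, 48 and 117 counts), against 18.6, 11.6 and 20.8 CPM in controls (291, 138 and 325 counts). The highest mutant library lay far under the lowest control. Casq2 fell by 1.77 on the log2 scale (95% interval -2.46 to -1.08, edgeR adjusted p = 0.0082), and mutants held 29.3% of the control level. The other 9 members held between 57.0% and 76.7%. The interval of Casq2 overlapped those of Mylk, Myh11 and Cnn1 and lay under those of the other 6. Whether Casq2 differed from the other members was not tested.

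**Figure D2:**
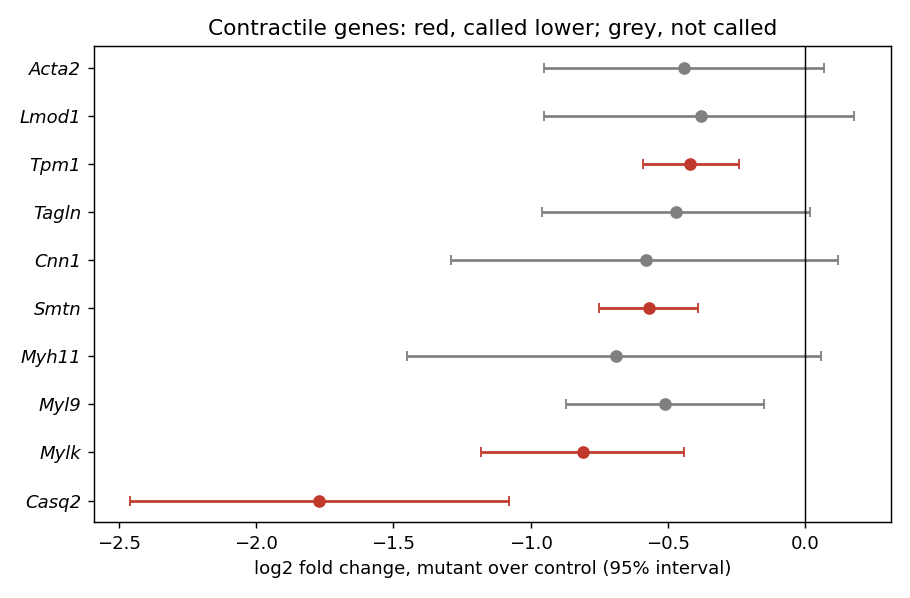
Log2 fold change of each contractile gene, mutant over control (horizontal axis), with its 95% interval from the edgeR fit. Called genes are red, and Casq2 at -1.77 stands to the left of the other 9, which lie between -0.81 and -0.38.

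Between genes, levels were compared per kilobase of exon, in CPM per kilobase. Acta2 came first, with 103 ± 24.9 in mutants and 140.4 ± 24.6 in controls, and Myl9 next, with 90.4 ± 15.2 and 129 ± 22.1 in the same order of groups (SD, n = 3 each). The control ranges of Acta2 and Myl9 overlapped, as did those of Myh11 and Mylk and those of Lmod1 and Cnn1. Tagln, Tpm1 and Smtn followed, at 45.8, 36.3 and 27.3 CPM per kilobase in mutants and 63.5, 48.5 and 40.5 in controls. Myh11 and Mylk had 16.2 and 14.3 in mutants and 26.1 and 25.1 in controls. In mutants Casq2, Lmod1 and Cnn1 lay together at 1.82, 1.68 and 1.40, whereas in controls Casq2 had 6.22 and the other two 2.20 and 2.12. On this measure the order over the 10 genes was the same in both groups. Taken per length of the longest transcript, Tpm1 passed Tagln, at 81.5 against 57.0 in mutants and at 109 against 79.1 in controls. Mylk passed Myh11 there, at 20.6 against 18.8 in mutants and at 36.1 against 30.3 in controls. Cnn1 lay under Lmod1 in mutants (1.61 against 1.68) and above it in controls (2.44 against 2.20), so on that length the order was not the same in both groups.

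Single libraries carried much of the spread. Relative to each gene's own mean over 6 libraries, the median of the 10 genes was -0.15, -0.60 and -0.11 on the log2 scale in mutant replicates 1 to 3, and 0.57, 0.17 and 0.13 in control replicates 1 to 3. Mutant replicate 2 was the lowest library for all 10 genes, and control replicate 1 the highest for 9, the exception being Casq2, highest in control replicate 3. Within groups, the coefficient of variation was lowest for Tpm1 (5.47% in mutants, 8.17% in controls) and Smtn (7.58% and 7.9%). It reached 45% in mutants for Cnn1 and 28.4% in controls for Casq2.

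**Figure D3:**
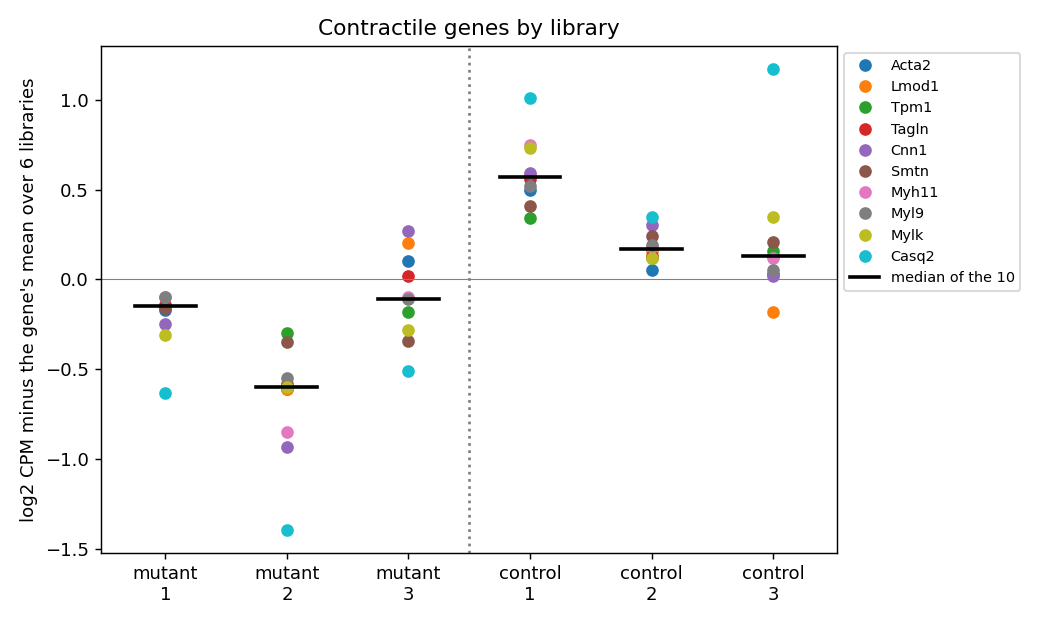
Log2 CPM of each contractile gene minus its mean over the 6 libraries (vertical axis), by library, with the median of the 10 genes as a black bar. The median is -0.60 in mutant replicate 2 and 0.57 in control replicate 1, while the other 4 libraries lie between -0.15 and 0.17.

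Control replicate 1 and mutant replicate 2 are the extreme libraries of these same genes. Leaving out this pair therefore had to bring the median nearer to 0, and it can narrow the spread within groups. Without control replicate 1 and mutant replicate 2 together, the median log2 fold change of the 10 genes was -0.25, and 5 were called lower, the 4 above and Myh11. Acta2, Tagln and Cnn1 then had -0.13, -0.15 and -0.13, and Lmod1 turned to 0.05. Smtn, Tpm1 and Casq2 had -0.48, -0.31 and -1.48. Leaving out 1 library at a time, 3 or 4 members were called and the median lay between -0.62 and -0.37.

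**Figure D4:**
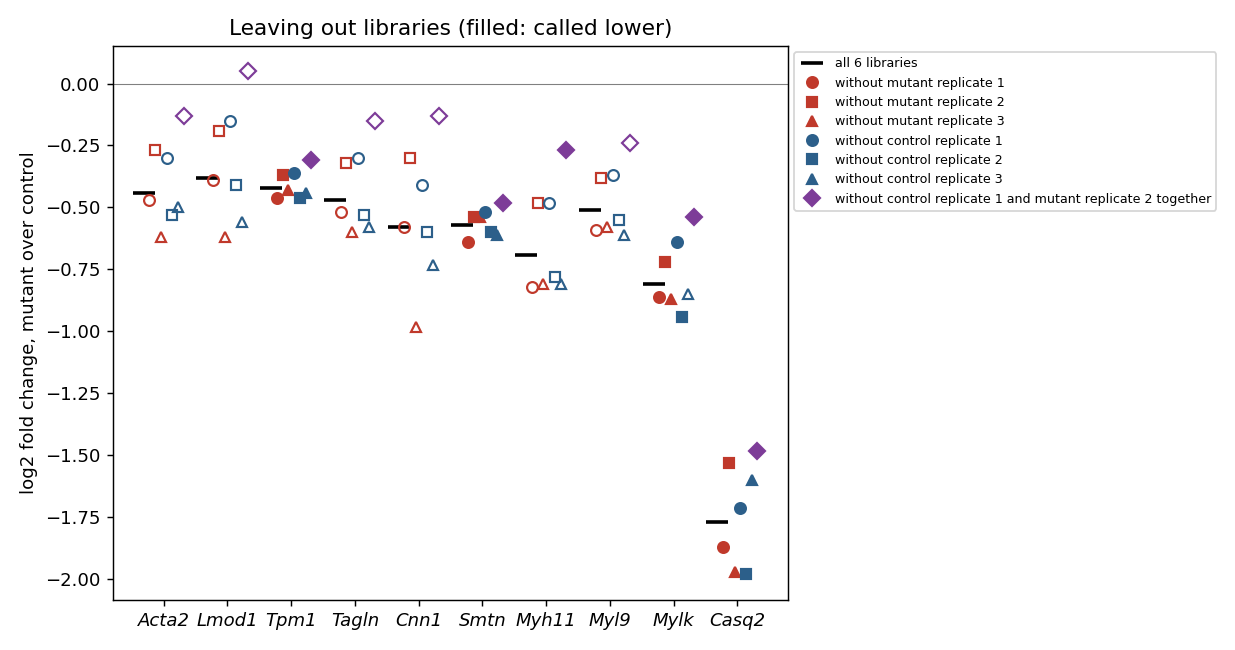
Log2 fold change of each contractile gene (vertical axis, mutant over control) with all 6 libraries and with libraries left out. Filled points were called lower. Smtn, Tpm1 and Casq2 are filled in every setting shown, and without control replicate 1 and mutant replicate 2 together Lmod1 lies at 0.05.

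Of 21 further thin and thick filament genes tested, 3 fell and 2 rose (14.3% and 9.52%, median -0.18). Over all tested genes 9.13% fell and 8.63% rose, and in a list of 21 these shares lie near each other. Cald1, the actin-binding caldesmon, fell to 342 ± 13.2 CPM in mutants, against 420.1 ± 29.2 CPM in controls (log2 fold change -0.30), and the tropomyosin Tpm4 by 0.29. Smtnl2, a relative of smoothelin, rose by 0.41 and Tagln3, a neuronal relative of Tagln, by 0.97. The edgeR adjusted p of these 4 calls lay between 0.0232 and 0.0422, and that of Tagln3 was lost in 9 of 16 alternatives. Only 1 fell when control replicate 2 was left out, and 0 fell when control replicate 3, mutant replicate 2 or mutant replicate 3 was. The rises became 0 with replicate 3 of either group left out and 1 with any other library left out.

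Of 32 genes for intermediate filaments and for the plaques that tie filaments to the membrane, 6 fell and 1 rose (median -0.14). That was 18.8% and 3.12%, against 9.13% and 8.63% of all tested genes. Palld, the actin-bundling palladin, fell to 113 ± 10.8 CPM in mutants, against 158 ± 20.4 CPM in controls (log2 fold change -0.49, edgeR adjusted p = 0.00966). Actn1, an actin cross-linker, fell by 0.34, and Cryab, a small heat shock protein of muscle, by 0.51. Zyx, the focal adhesion protein zyxin, rose to 190.3 ± 17.8 CPM in mutants, against 120.2 ± 20.1 CPM in controls (log2 fold change 0.66, edgeR adjusted p = 0.00546). Leaving out control replicate 2, mutant replicate 2 or mutant replicate 3 cut the falls to 3. The rises became 2 with replicate 2 of either group left out, and 3 with mutant replicate 1 left out. Without control replicate 1 and mutant replicate 2 together, 2 fell and 4 rose. The call of Actn1 was lost without control replicate 2 (adjusted p = 0.0527), and that of Cryab without control replicate 1 and mutant replicate 2 together (0.0539).

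Of 24 genes tested that control myosin phosphorylation, 5 fell and none rose (20.8% and 0%, median -0.13). Over all tested genes 9.13% fell and 8.63% rose. With upper-quartile scaling 4 of the 24 fell and 1 rose. Calm2, which encodes calmodulin, the activator of Mylk, had 259 ± 28 CPM in mutants, against 339 ± 12.8 CPM in controls (SD, n = 3 each, log2 fold change -0.39, edgeR adjusted p = 0.0115). Rock1, a kinase that restrains myosin phosphatase, fell by 0.34, and Rnd1, a small GTPase, by 1.19 at 1.99 ± 0.727 CPM in mutants and 4.58 ± 1.71 CPM in controls. The groups of Rnd1 overlapped, at 2.68 CPM in mutant replicate 1 and 2.63 CPM in control replicate 1. The falls became 3 when replicate 2 of either group was left out, and 2 when replicate 3 of either group was. Without either of these last libraries the calls of Rock1 and Rnd1 were lost, and that of Rnd1 also without control replicate 2 or mutant replicate 2, with limma-voom and with the replicate number as a block (largest adjusted p 0.136).

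Calcium handling genes had the highest share of falls among the 7 further pathway lists, with 9 falls and 1 rise of 23 tested (median -0.16). That was 39.1% and 4.35%, against 9.13% and 8.63% of all tested genes. Ryr3 and Ryr2, the release channels of the store in which Casq2 sits, fell most among the named genes of this list. Ryr3 had 10.4, 9.69 and 7.55 CPM in mutants, against 21.8, 23.7 and 26.1 CPM in controls (log2 fold change -1.38, edgeR adjusted p = 9.27e-05). Ryr2 had 4.36, 3.51 and 5.7 CPM in mutants, against 10.3, 9.99 and 8.51 CPM in controls (log2 fold change -1.07, edgeR adjusted p = 0.0032). In both genes the groups were far apart and the 3 controls close together. Slc8a1, the sodium-calcium exchanger, fell by 0.43 and Itpr1, the other kind of release channel, by 0.35. These 4 calls held with any 1 library left out. Falls in the list became 4 when control replicate 2 was left out and 5 when mutant replicate 2 or 3 was, and leaving out any single library ended the rise.

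Among regulators of the contractile program, myocardin fell while the list as a whole did not lean. Of 39 tested, 6 fell and 7 rose (median 0.03). That was 15.4% and 17.9%, against 9.13% and 8.63% of all tested genes. Myocd, the muscle partner of serum response factor, had 3.22, 3.32 and 4.65 CPM in mutants, against 16.1, 11 and 8.45 CPM in controls. All mutant libraries lay under all controls, and control replicate 1 was again the highest. Myocd fell by 1.66 on the log2 scale (95% interval -2.22 to -1.10, edgeR adjusted p = 0.00253), and the call held in all 16 alternatives, where the value nearest 0 was -1.29. Mef2c, a transcription factor of muscle and vessels, fell to 171 ± 19.3 CPM in mutants, against 253 ± 28.4 CPM in controls (log2 fold change -0.56). Gata6, a factor of vascular smooth muscle, rose to 16.7 ± 3.51 CPM in mutants, against 8.37 ± 1.74 CPM in controls (log2 fold change 1.01, edgeR adjusted p = 0.005), and Hmga1, a chromatin protein, rose by 0.48. The calls of Mef2c, Gata6 and Hmga1 also held in all 16 alternatives. Rises in the list became 4 when control replicate 2 or 3 was left out and 3 when any single mutant library was. Falls became 3 without control replicate 2, control replicate 3 or mutant replicate 2.

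Of 18 genes that serum response factor and its partners drive outside muscle, 3 fell and 2 rose (median 0.09). That was 16.7% and 11.1%, near the 9.13% and 8.63% of all tested genes for a list of 18. Arc, a gene of the early response to stimulation, fell by 1.81 on the log2 scale, at 4.75 ± 0.426 CPM in mutants and 16.7 ± 4.8 CPM in controls (edgeR adjusted p = 0.000523). Ankrd1 rose by 1.12 at 1.63 ± 0.195 CPM in mutants and 0.756 ± 0.216 CPM in controls (edgeR adjusted p = 0.0311). Tpm4 and Zyx, given above, are also in this list. DESeq2 did not call Ankrd1, and leaving out any single library except control replicate 1 ended its call (adjusted p up to 0.123). Falls became 1 without control replicate 2, mutant replicate 2 or mutant replicate 3. Rises became 4 without control replicate 1 and 1 without any other single library, and without control replicate 1 and mutant replicate 2 together 1 fell and 5 rose.

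Receptors through which vessels constrict and relax moved both ways, with 5 falls and 3 rises of 25 tested (median -0.18). That was 20% and 12%, against 9.13% and 8.63% of all tested genes. Agtr1a, a receptor for angiotensin, had 59.4, 46.6 and 58.3 CPM in mutants, against 31.1, 30.2 and 30.2 CPM in controls (log2 fold change 0.84, edgeR adjusted p = 0.000328). Npr1, a natriuretic peptide receptor, rose by 0.51. Ptger3, a prostaglandin receptor, fell by 0.67 and Adra1a, an adrenergic receptor, by 1.23 at 0.929 ± 0.0795 CPM in mutants and 2.17 ± 0.811 CPM in controls. There were 2 falls without control replicate 3, mutant replicate 2 or mutant replicate 3, and 1 rise without mutant replicate 3. Npr1 lost its call when replicate 3 of either group was left out (adjusted p up to 0.0831), and Adra1a lost it without control replicate 1, any 1 mutant library, or control replicate 1 and mutant replicate 2 together (largest 0.123).

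**Figure D5:**
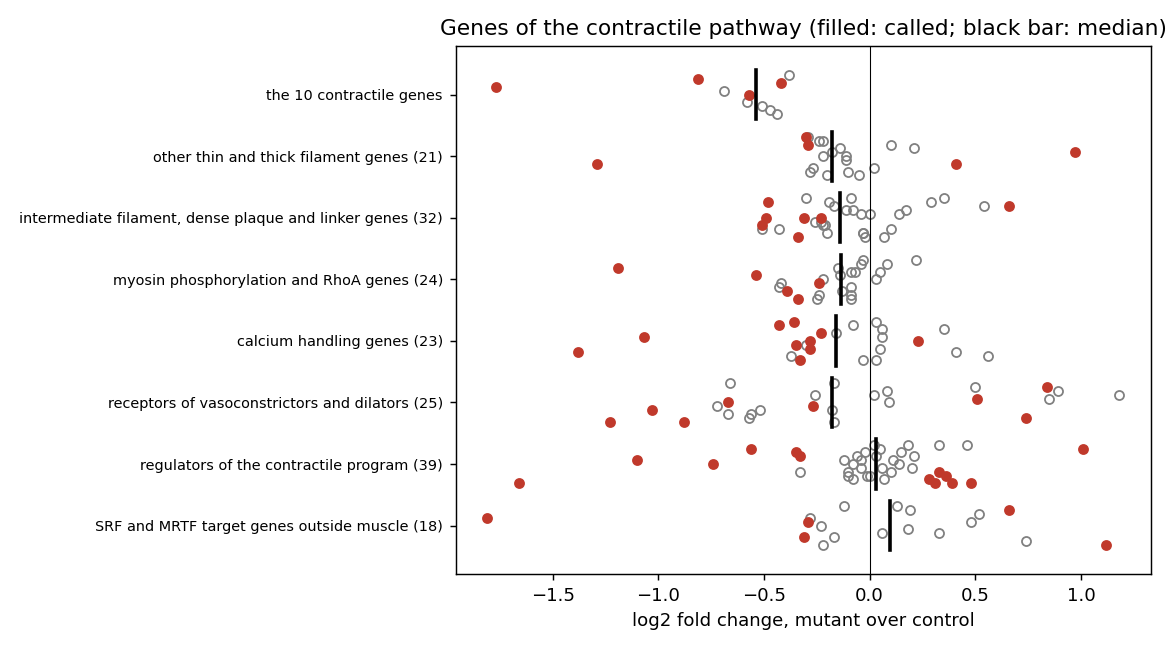
Log2 fold change, mutant over control (horizontal axis), of every tested gene in the contractile set and in 7 further lists of its pathway, with called genes filled and the list median as a black bar. The median of the contractile genes is -0.54, and those of the other lists lie between -0.18 and 0.09.

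By the shape of their values over the 6 libraries, the genes nearest to the median of the contractile set were Adamts8, C1qtnf7, Cryab, Bace2 and Synpo2. Their root mean square difference from that profile was 0.0356, 0.0613, 0.0706, 0.0725 and 0.0785 on the log2 scale. The median was 0.372 over the 9502 genes compared, which averaged 10 CPM or more. Left out of the comparison were the members, genes without a symbol, and symbols of Gm plus digits or ending in Rik. Within the contractile set, Myl9 lay nearest at 0.0481 and Casq2 farthest at 0.621. Adamts8, a secreted protease, had 24.4, 18.9 and 26.4 CPM in mutants, against 43.2, 31.2 and 31.6 CPM in controls. Picked for following that profile, it was also lowest in mutant replicate 2 and highest in control replicate 1. Synpo2 is an actin-binding protein of smooth and striated muscle. Adamts8, Cryab and Bace2 were called lower, and C1qtnf7 and Synpo2 were not. Adamts8 lost its call when control replicate 3, mutant replicate 1 or mutant replicate 2 was left out (adjusted p up to 0.0672), and Bace2 without any single control library or mutant replicate 2, and without control replicate 1 and mutant replicate 2 together (largest 0.16).

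Gene counts per library ran from 15110824 to 18792939 in mutants and from 11912469 to 15839701 in controls, at which 3 counts, the limit that a count of 0 allows, came to between 0.16 and 0.252 CPM. Such limits cover counting error only. Pdgfra, the gene that carries the mutant allele, was lower in mutants, at 369, 345 and 359 CPM against 857, 820 and 856 CPM in controls (log2 fold change -1.24, edgeR adjusted p = 2.75e-06). Mutants and controls parted along the first principal component (50.2% of variance), and control replicate 1 lay farthest out along the next one (18.2%).

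Summed markers of skeletal muscle, endothelium and keratinocytes were higher in mutants, whereas those of pericytes overlapped between the groups. The counts of called markers stand against 9.13% lower and 8.63% higher over all tested genes. Of 22 skeletal muscle and satellite cell markers tested, 15 were higher and none lower, with a summed level of 279 to 406 CPM in mutants and 136 to 152 CPM in controls. Actc1 and Myog were the most abundant of them. Of 15 endothelial markers 6 were higher (sum 396 to 544 CPM in mutants, 304 to 324 CPM in controls), and of 10 keratinocyte markers 5 were higher (sum 964 to 1204 CPM in mutants, 522 to 821 CPM in controls). Eng, Cdh5 and Krt14, among the most abundant of these, were not called, and Krt5 was (edgeR adjusted p = 0.0313). The keratinocyte count was 1, with Krt5 not called, without control replicate 3, mutant replicate 1 or mutant replicate 3. Of 17 pericyte markers 5 were higher and none lower (sum 1641 to 1889 CPM in mutants, 1557 to 1842 CPM in controls). Rgs5, a pericyte and smooth muscle gene and the most abundant of them with Notch3, had 195, 139 and 222 CPM in mutants, against 405, 213 and 299 CPM in controls. It was lowest and highest in the same libraries as 9 of the 10 contractile genes. The groups of Rgs5 overlapped, and it was not called (edgeR adjusted p = 0.181). Notch3 had a log2 fold change of 0.33 and was not called either (edgeR adjusted p = 0.0601). The 5 pericyte markers called higher were Kcnj8, Abcc9, Art3, Tbx2 and Ebf1, named here after their values were seen. Their log2 fold changes ran from 0.50 (Ebf1) to 1.47 (Kcnj8), at edgeR adjusted p from 7.59e-05 to 0.0325. Of 17 genes that respond to tissue dissociation and stress, 4 were lower and 2 higher, and the 4 lower ones were all heat shock genes, named here after their values were seen. Hspa1b had 26.2, 21.3 and 24.9 CPM in mutants, against 169, 94.1 and 117 CPM in controls (log2 fold change -2.40, edgeR adjusted p = 0.00314), and was lowest and highest in the same libraries as 9 of the 10 contractile genes. No marker in these lists was at 0 in every library, and their part in the falls of the contractile genes was not tested.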

How the data were processed

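RNA was sequenced from sorted cells of 3 mutant and 3 control pups. The authors deposited 1 file of raw read counts per gene and library. Per the submitters' processing notes, which give neither role nor order, TopHat2 2.0.4, HTSeq 0.5.3, cutadapt 1.1, DESeq2 and FastQC were used with build mm9. The strand setting is not stated there. Each file ends in 5 rows that name no gene, with 36.9% to 41.7% of its reads, which were left out. Symbols matched 32919 of 37991 rows. Exon lengths, overlaps and transcript windows came from GENCODE M21 (GRCm38), and no mm9 coordinate is printed.

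Genes passing filterByExpr (minimum count 10, minimum total 15) were TMM-scaled and fitted in R 4.3.3 with the robust quasi-likelihood F test of edgeR 4.0.16, group being the only term. Intervals are at the 95% level. The test was checked on simulated counts. DESeq2 1.42.0, limma 3.58.1 (voom), other scalings and filters, a replicate block and left-out libraries were alternatives. Within groups, libraries varied beyond counting noise (chi-square per degree of freedom 4.73 to 13.3). The 6 libraries came from separate mice and were pooled for sequencing, per the labels' protocols, with no batch given. The likeness measure used log2(CPM + 0.5). The mutant file names carry other numbers than the titles, and titles were followed.

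Members and gene lists were chosen with earlier results of these data known. Named genes were the 10 members and, of each pathway list, the 4 called genes with the smallest adjusted p (or the 2 most abundant if none was called). Other lists gave their 2 most abundant genes, and likeness its 5 nearest. Some genes that this rule names are not reported here. Other actins and genes overlapping a member were named for shared reads, and Pdgfra as the targeted gene. Further called pericyte markers and dissociation and stress genes were named after their values were seen.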

Additional observations from a re-analysis of the deposited data

How the results depend on the processing

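Smtn, Tpm1 and Casq2 were called lower in all 16 alternatives, with log2 fold changes from -0.64 to -0.48, from -0.46 to -0.31 and from -1.98 to -1.48. Mylk was called in 15. Acta2 and Lmod1 were called in none. The number of contractile genes called lower was 4 with RLE or upper-quartile scaling and with the stricter filter, 5 with library totals only, and 6 with no filter, DESeq2, limma-voom and edgeR without robust fitting, and none was called higher. With 1 library left out it was 3 to 4, and the median of the 10 lay between -0.62 and -0.37. Without control replicate 1 and mutant replicate 2 together, that median moved to -0.25, and the value of Lmod1 turned to 0.05. These 2 libraries are the extremes of the contractile genes themselves, so a move toward 0 was fixed by their choice. The cause of the spread between libraries was not tested. Genes called in all numbered 2670, against 1411 (without mutant replicate 3) to 2699 (without control replicate 1) with 1 library left out, 1657 without control replicate 2 and 1486 without control replicate 3. Among marker genes near 0, Eng turned to 0.05 without mutant replicate 2, 0.12 without control replicate 1 and 0.21 without both, and Dcn to 0.02 without both. Other scalings moved the median of all tested genes to at most 0.03.

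Whether the replicate numbers pair samples was not stated, and 3 libraries per group cannot settle it. Deviations from the group means of same-numbered libraries correlated at 0.13, -0.01 and -0.11 over genes, and mutant replicate 2 was nearer to control replicate 3 (0.18). With the replicate block, 6 contractile genes were called lower, Myl9 and Myh11 in addition, and 2767 genes in all. Precision did not follow depth throughout: Cnn1, with 33 to 111 counts per library, had a standard error of 0.31, and Myh11, with 1294 to 4009, one of 0.29.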

Other observations

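The counts of called markers below stand against 9.13% lower and 8.63% higher over all tested genes. Of 13 fibroblast and adipose progenitor markers 3 were lower, Pdgfra among them, and 1 was higher, with a summed level of 4797 to 5695 CPM in mutants and 5729 to 6424 CPM in controls. Their most abundant genes, the matrix proteoglycans Dcn and Lum, were not called. Of 15 markers of the dermal sheath and papilla 4 were lower and 2 higher (sum 1668 to 1804 CPM in mutants, 1939 to 2057 CPM in controls), and Vcan, a large proteoglycan, fell by 0.36 on the log2 scale (edgeR adjusted p = 0.0166). Vcan lost its call when mutant replicate 2 was left out, alone or with control replicate 1 (adjusted p up to 0.0573). The higher fibroblast count became 3 without mutant replicate 2 and 2 without control replicate 2. For sheath and papilla, the lower count became 2 without mutant replicate 2 or 3, and the higher count 1 without mutant replicate 1 or 3.

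Of 7 markers of the hair-raising muscle and its anchor, 3 were lower and none higher: Myocd, Adra1a and Actg2, which stand in the other lists as well. Itga5 and Itga8, the most abundant of the 7, were not called. Only 1 fell when any of the mutant libraries was left out. Of 10 Schwann and glial markers 1 was lower and 1 higher, and Ngfr, a neurotrophin receptor, rose by 0.33 on the log2 scale (edgeR adjusted p = 0.02). The call of Ngfr was lost without control replicate 1, mutant replicate 1 or mutant replicate 3 (largest adjusted p 0.0769). Of 10 immune markers 1 was lower and 1 higher, and Mrc1 and Csf1r were not called. Without control replicate 1, 4 were higher, and without control replicate 2, control replicate 3 or mutant replicate 1 none was lower.

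Among the 17 dissociation and stress genes, the 4 lower ones were Hspa1b, Hspa1a, Hsph1 and Hspa8, genes for chaperones. Hspa1a fell by 1.86 on the log2 scale, at 27.5 ± 5.86 CPM in mutants and 99.8 ± 29.3 CPM in controls (SD, n = 3 each, edgeR adjusted p = 0.0119). Hsph1 fell by 1.14, at 36 ± 2.68 CPM in mutants and 79.3 ± 7.42 CPM in controls (edgeR adjusted p = 3.35e-05). Hspa1b, Hspa1a and Hsph1 were called lower in all 16 alternatives. Hspa8 fell by 0.27 (edgeR adjusted p = 0.0471), a call that ended in 7 alternatives, among them leaving out any single library except mutant replicate 1. The 2 higher genes were Jun and Jund, parts of a transcription factor of the early stress response. Jund rose by 0.83 (edgeR adjusted p = 0.003) and Jun rose to 2444 ± 216 CPM in mutants, against 1638 ± 291 CPM in controls (SD, n = 3 each, edgeR adjusted p = 0.0118). Fos had 2496, 2331 and 2749 CPM in mutants, against 949, 1798 and 1791 CPM in controls, and was not called (edgeR adjusted p = 0.105). Control replicate 1, the highest library for 9 of the 10 contractile genes, was the lowest library for Jun and Fos. Without it 6 of the 17 were lower and 5 higher.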
